A study of Mus with 8 samples.

Results

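Of the 54532 genes in the deposited table of mouse liver transcripts, 10 genes of the unfolded protein response were followed here: the transcription factor gene Xbp1 and 9 genes for chaperones and folding enzymes of the endoplasmic reticulum (ER), namely Hspa5, Hsp90b1, Calr, Pdia4, Pdia6, Hyou1, Dnajb9, Sdf2l1 and Creld2. They were taken by gene name, each name matched 1 row, and all 10 passed the filter on low counts that left 11729 genes to test. In this response, unfolded protein in the ER lumen draws the chaperone BiP (the product of Hspa5) away from the membrane sensors IRE1 (Ern1), PERK (Eif2ak3) and ATF6. IRE1 splices the Xbp1 messenger RNA, ATF6 is cut in the Golgi to release a transcription factor, and PERK slows translation and favours ATF4. XBP1 and ATF6 raise the transcription of chaperones, folding enzymes and degradation factors. Hepatocytes, which secrete most plasma proteins, depend on this machinery.

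Liver RNA came from mice given dextran sulfate sodium (DSS), an agent that injures the colonic epithelium, at 2.5% until day 6. The DSS group has libraries 15, 48, 49 and 50. The other group, here the diet-alcohol group, received DSS and then a high-fat diet with alcohol and has libraries 35, 45, 65 and 71. Diet and alcohol came together, so neither agent can be separated. Every mouse had DSS, so there is no untreated liver to compare with, and no measure of colitis is given. The labels give no strain, age or sex and do not state the feed of the DSS group. They do not say that each library is a separate mouse, so p-values set the group difference against the spread between libraries.

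Total counts ran from 12502300 to 16967839 per library. Mitochondrially encoded transcripts took 55.8 to 79.1% of them in the DSS group and 30.2 to 73.0% in the diet-alcohol group, leaving 2722757 to 10947612 counts of other genes. Library 35 stood apart: only 784 of its genes held 1 to 9 counts, where each of the other 7 had between 4319 and 4987 such genes. It had 11867 genes detected, against 14921 to 17767 in the other 7. On the first principal component of the log2 levels, with 50.6% of the variance, it lay at 154 and the other 7 from -33.7 to -6.13. Hepatocyte markers were present in every library, with the 10 markers together at 43579 to 68136 CPM (counts scaled to library size, here with TMM factors) in the DSS group and 24733 to 31337 CPM in the diet-alcohol group, mostly from Alb. In whole liver, fewer cells of a type and less RNA per cell cannot be told apart.

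The comparison asks how these genes stood in livers of DSS-treated mice with and without the high-fat diet and alcohol. None of the 10 passed the test over all genes (edgeR, quasi-likelihood; threshold 0.05 on the adjusted p), where 1.26% of all genes tested passed. DESeq2 and limma-voom called none either. At an unadjusted p under 0.05 there were 4, Sdf2l1, Calr and Xbp1 with positive and Hspa5 with a negative log2 fold change, beside 11.7% of all genes. The fold change was positive for 8 of the 10, beside 49.5% of all genes, and its median was 0.53 on the log2 scale, against -0.01 over all genes tested. In simulated data of this design the test recovered 4.08% of 49 genes changed 2-fold and 74.5% of 47 changed 4-fold. Recovery was not tested at the levels of these 10 genes, for changes under 2-fold or for changes between 2-fold and 4-fold.

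**Figure D1:**
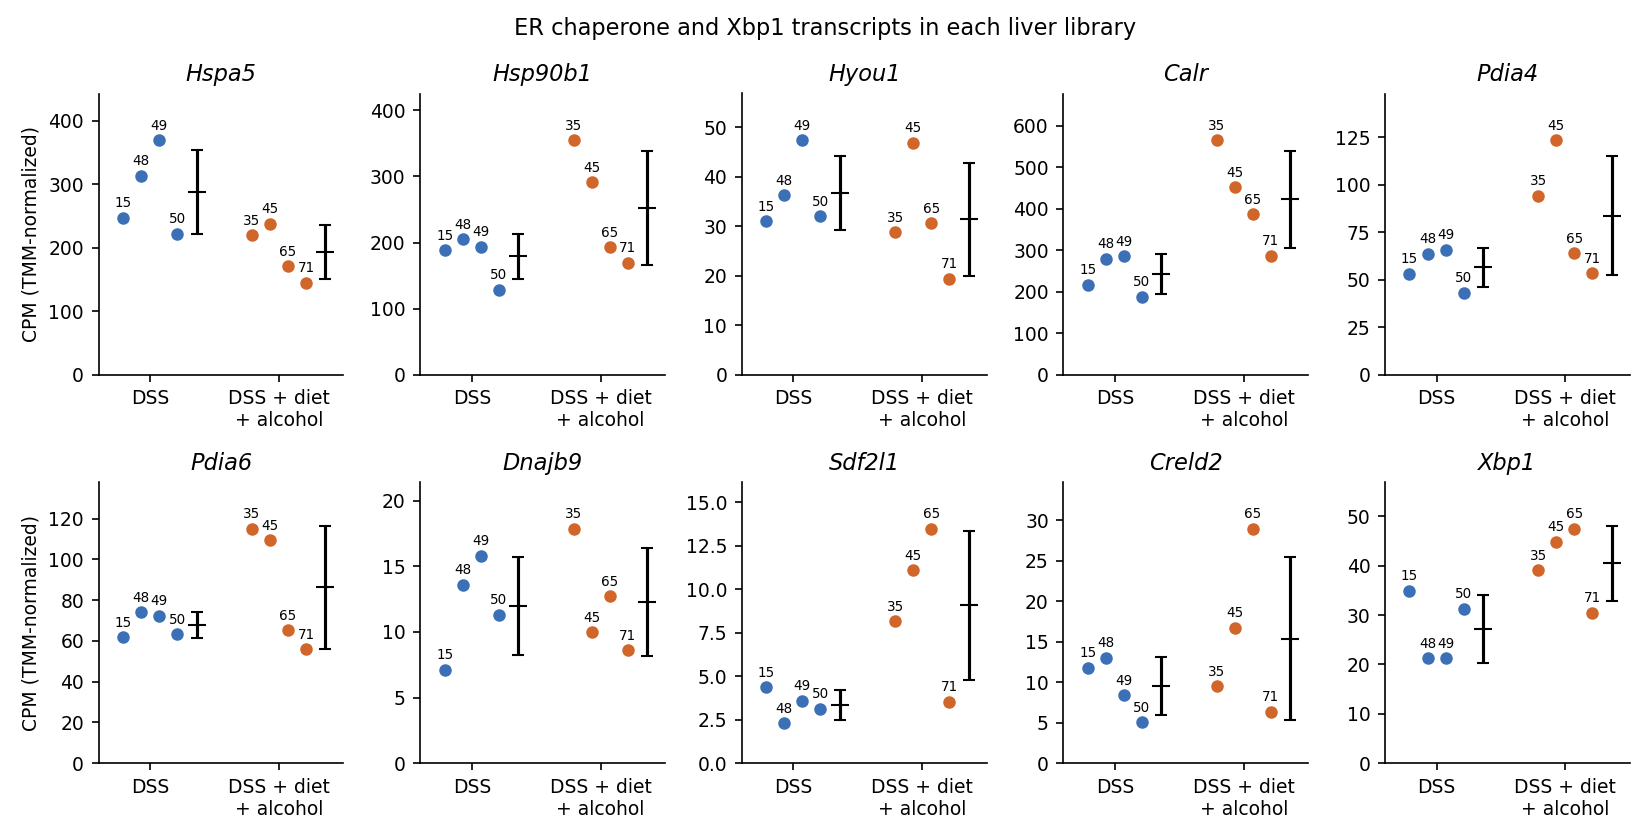
Each panel plots the normalized level (CPM, axis from 0) of 1 gene in the 4 DSS libraries (blue) and the 4 diet-alcohol libraries (orange), with library numbers beside the points and the group mean ± SD in black. Calr is the gene whose groups do not overlap, and library 71 is the lowest point of the diet-alcohol group in every panel.

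The main chaperones of the ER lumen come first. Hspa5 (ENSMUSG00000026864; chromosome 2, 34771970 to 34777547, GRCm38) encodes BiP, the HSP70 of the ER and the usual marker of the response. It had 247, 313, 369 and 222 CPM in DSS libraries 15, 48, 49 and 50. It had 219.7, 238, 171 and 145 CPM in diet-alcohol libraries 35, 45, 65 and 71. The groups overlapped, since DSS 50 lay below library 45 and just above library 35. The means were 288 ± 66.4 and 193 ± 43.0 CPM (SD, n = 4 each), and the fitted log2 fold change was -0.57 (95% interval -1.12 to -0.03; edgeR adjusted p = 0.396). Its value stayed between -0.69 and -0.44 in all 17 alternative fits.

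Hsp90b1 (chromosome 10, 86690209 to 86705509) encodes GRP94, the HSP90 of the ER. It had 189, 205, 194 and 129 CPM in the DSS libraries and 355, 291, 193 and 169 CPM in the diet-alcohol libraries, in the same order of libraries as for Hspa5. Libraries 35 and 45 lay above all DSS values, and 65 and 71 lay within them. The log2 fold change was 0.49 (95% interval -0.12 to 1.10; edgeR adjusted p = 0.55), and 0.28 without library 35. Hyou1 (chromosome 9, 44379490 to 44392369) encodes GRP170, which exchanges the nucleotide on BiP. It had 31.1, 36.3, 47.3 and 32.0 CPM in the DSS libraries and 28.8, 46.9, 30.6 and 19.4 CPM in the diet-alcohol libraries. Libraries 35, 65 and 71 lay below every DSS library, the first 2 by little, and library 45 lay among the DSS values. The log2 fold change was -0.22 (95% interval -0.83 to 0.38), or -0.49 without library 45, -0.05 without library 71 and -0.09 without DSS 49.

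Calr (ENSMUSG00000003814; chromosome 8, 84841850 to 84846934) encodes calreticulin, the soluble lectin that holds glycoproteins with a single glucose left on their sugar chain until they fold. It had 217, 279.9, 286 and 188 CPM in the DSS libraries. It had 565, 452, 387 and 287 CPM in the diet-alcohol libraries. All 4 diet-alcohol values lay above all 4 DSS values, as for 4.14% of all genes tested, but library 71 cleared DSS 49 by little. The means were 242 ± 48.1 and 423 ± 116 CPM (SD, n = 4 each), 1.74-fold apart, or 0.80 on the log2 scale of the fit (95% interval 0.23 to 1.37; edgeR adjusted p = 0.206). Leaving out library 35 gave 0.63 and leaving out library 71 gave 0.95. In the authors' deposited table the adjusted p of Calr was 0.0931.

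The 2 protein disulfide isomerase genes, whose products form and rearrange disulfide bonds, resembled Hsp90b1 in the order of libraries. Pdia4 (ERp72; chromosome 6, 47796141 to 47813430) had 53.2, 63.8, 65.8 and 43.2 CPM in the DSS libraries and 94.4, 123, 64.1 and 53.5 CPM in the diet-alcohol libraries. Pdia6 (chromosome 12, 17266545 to 17284770) had 61.8, 74.2, 72.3 and 63.3 CPM, against 115, 109, 65.2 and 55.9 CPM. For both, libraries 35 and 45 were above every DSS library while 65 and 71 were not. The log2 fold changes were 0.57 (95% interval -0.05 to 1.18) for Pdia4 and 0.35 (-0.22 to 0.92) for Pdia6. Without library 45 the value of Pdia4 was 0.32, and that of Pdia6 was 0.18 without library 35 and 0.21 without library 45.

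Among the cofactors, Sdf2l1 (ENSMUSG00000022769; chromosome 16, 17130138 to 17132383) had the largest fold change of the 10. Its product works with an ER J-protein to keep BiP clients from aggregating. It had 4.36, 2.31, 3.59 and 3.13 CPM in the DSS libraries, from 21 to 70 counts. It had 8.17, 11.1, 13.5 and 3.53 CPM in the diet-alcohol libraries, from 89 to 270 counts. Libraries 35, 45 and 65 lay above every DSS library, and library 71 lay below DSS 15 and DSS 49. The means were 3.35 ± 0.858 and 9.07 ± 4.28 CPM (SD, n = 4 each), and the fit gave 1.42 on the log2 scale (95% interval 0.53 to 2.32; edgeR adjusted p = 0.15). Without library 71 it was 1.69 and passed the test (edgeR adjusted p = 0.039, the lowest over the 17 alternatives, which reached 0.433). In the authors' deposited table its adjusted p was 0.0523.

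Creld2 (chromosome 15, 88819646 to 88826683), a secreted or ER-resident protein with EGF-like domains that is induced by ER stress, was scattered. It had 11.8, 13.04, 8.39 and 5.06 CPM in the DSS libraries and 9.51, 16.7, 28.9 and 6.35 CPM in the diet-alcohol libraries. Library 65 was the high one, and the log2 fold change went from 0.66 (95% interval -0.33 to 1.65) to 0.16 without it. Dnajb9 (ERdj4; chromosome 12, 44205559 to 44210326), a J-protein that brings BiP to IRE1 and to degradation substrates, had 7.11 to 15.8 CPM in the DSS group and 8.61 to 17.9 CPM in the diet-alcohol group. Its log2 fold change was 0.04 (95% interval -0.64 to 0.72), which turned to -0.20 without library 35 and -0.16 without DSS 15.

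Xbp1 (ENSMUSG00000020484; chromosome 11, 5520659 to 5525893) is the transcription factor of the IRE1 branch. Counts per gene do not separate the spliced from the unspliced messenger RNA, so they give its amount and not its activation. It had 34.9, 21.3, 21.3 and 31.3 CPM in the DSS libraries and 39.1, 44.9, 47.5 and 30.5 CPM in the diet-alcohol libraries. Library 71 lay among the DSS values and the other 3 lay above them. The log2 fold change was 0.57 (95% interval 0.05 to 1.10; edgeR adjusted p = 0.372), and 0.46 to 0.71 when single libraries were left out.

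The spread within the diet-alcohol group followed the libraries across the genes. Library 71 had the lowest CPM of its group for 10 of the 10 genes, and its mitochondrial share, 30.2%, was the lowest of all. Libraries 45 and 35 had the next lowest shares, 35.5 and 42.2%, but the highest summed CPM of the 10 genes. Library 35 was the highest of its group for 4 genes, library 45 for 3 and library 65 for 3. The summed level of the 10 genes was 857, 1023, 1083 and 728 CPM in the DSS libraries and 1452, 1343, 1014 and 779 CPM in the diet-alcohol libraries. Libraries 35 and 45 thus stood above the DSS group and 65 and 71 within it. On summed FPKM, and on the summed CPM without Hspa5, library 65 also stood above every DSS library (322 against at most 303 FPKM, and 843 against at most 714 CPM). When the fit held the mitochondrial share as a covariate, the median log2 fold change was 0.32, with Calr at 0.76, Sdf2l1 at 1.74 and Hsp90b1 at 0.28.

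**Figure D2:**
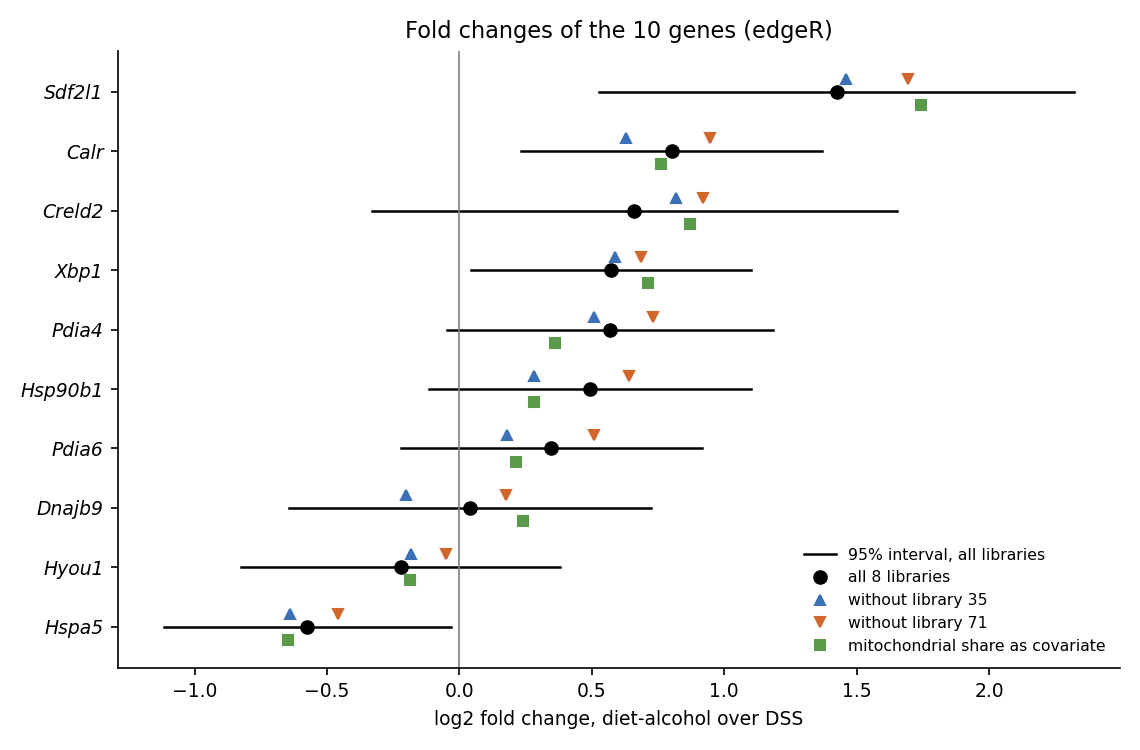
Fitted log2 fold change of each gene (x axis, diet-alcohol over DSS; edgeR) with its 95% interval in black, and the value without library 35, without library 71 and with the mitochondrial share as a covariate as coloured markers. The intervals of Sdf2l1, Calr and Xbp1 lie above 0 and that of Hspa5 below, and the marker of Dnajb9 without library 35 crosses 0.

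Levels between genes can be set side by side only per length, here as the deposited FPKM values, which divide by gene length. In the DSS group the order was Calr at 82.5 ± 16.4, Hspa5 at 66.6 ± 15.3 and Hsp90b1 at 43.6 ± 8.56 FPKM (SD, n = 4). Then came Pdia4 at 23.1 and Pdia6 at 17.7, and the remaining 5 ran from Xbp1 at 8.20 down to Sdf2l1 at 2.96 FPKM. In the diet-alcohol group Calr was at 144 ± 39.0, Hsp90b1 at 61.1 ± 20.6 and Hspa5 at 44.7 ± 9.89 FPKM. Hspa5 and Hsp90b1 had changed places, although over all 4 libraries their ranges still overlapped. At the lower end Sdf2l1, the last of the 10 in the DSS group, reached 8.04 FPKM and stood above Dnajb9 at 4.71 and Hyou1 at 4.26, with an SD of 3.86 that reached down to both.

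Ratios within a library do not depend on how libraries are scaled, and for Calr their spread within a group was smaller than that of the CPM values. The ratios were chosen after the values were seen, so they are a description with no test. Calr had 1.29, 1.31, 1.14 and 1.24 times the FPKM of Hspa5 in DSS libraries 15, 48, 49 and 50. It had 3.77, 2.79, 3.32 and 2.92 times in diet-alcohol libraries 35, 45, 65 and 71. Library 71, low for every gene in CPM, was no exception here. Hsp90b1 stood at 0.551 to 0.802 of Hspa5 in the DSS libraries and at 1.18 to 1.69 in the diet-alcohol libraries. Pdia4 stood at 0.314 to 0.380 and 0.653 to 0.915, and Pdia6 at 0.221 to 0.322 and 0.430 to 0.591.

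Of the 9 other genes, 6 had a ratio to Hspa5 that was higher in all 4 diet-alcohol libraries than in all 4 DSS libraries: Calr, Hsp90b1, Pdia4, Pdia6, Sdf2l1 and Xbp1. Among all genes tested, 13.5% did so and 0.708% lay lower. Hyou1 kept close to Hspa5, at 0.0678 to 0.0844 of it in the DSS libraries and 0.0766 to 0.115 in the diet-alcohol libraries. Hspa5 made up 25.4% ± 1.99 of the summed FPKM of the 10 genes in the DSS group and 13.1% ± 1.21 in the diet-alcohol group (SD, n = 4 each). The share of Calr was 31.5% ± 1.12 and 41.5% ± 2.58. Of the 45 pairs among the 10 genes, 14 had ratios that did not overlap between the groups, and 8 of the 36 pairs without Hspa5. Over all pairs of tested genes the share was 8.69%. Of the 14 pairs, 6 involved Hspa5, and Calr and Hyou1 each took part in 5.

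**Figure D3:**
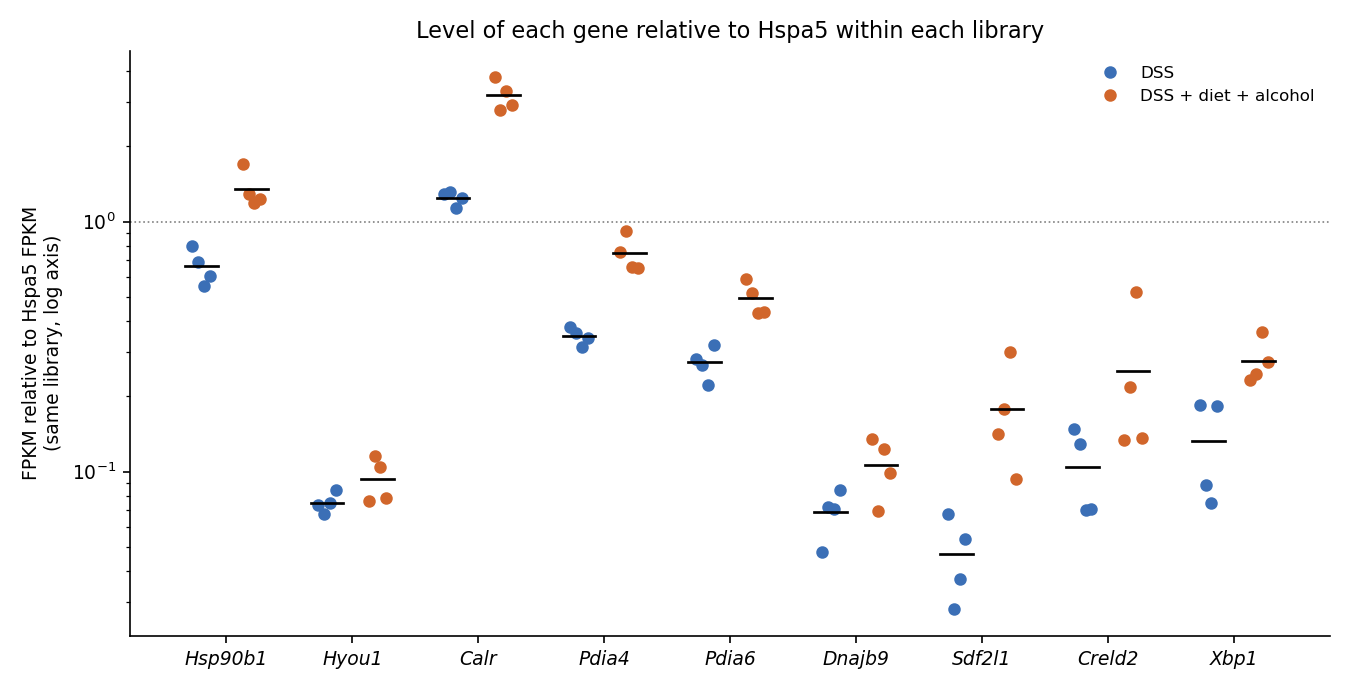
FPKM of each gene divided by that of Hspa5 in the same library (log axis), for the DSS libraries (blue) and the diet-alcohol libraries (orange), with the group mean as a black bar and a dotted line where both genes are equal. Calr goes from 1.14 to 1.31 in the DSS libraries to 2.79 to 3.77 in the diet-alcohol libraries, and Hsp90b1 from below the line to above it.

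The wider pathway was followed in lists of genes upstream and downstream of these chaperones. None of 15 sensors and transcription factors passed the test in edgeR, DESeq2 or limma-voom (median log2 fold change -0.17). In edgeR 1 had an unadjusted p under 0.05, beside 11.7% of all genes tested. Ern1, which encodes IRE1, had 3.93, 6.94, 8.15 and 7.75 CPM in the DSS libraries and 1.34, 1.89, 5.30 and 2.46 CPM in the diet-alcohol libraries. Library 65 was the one that reached the DSS range (log2 fold change -1.31 ± 0.45 SE; edgeR adjusted p = 0.239). Eif2ak3, which encodes PERK, was scarce, with 0 to 27 counts per library (-1.26 ± 0.93, or -0.83 without library 35). Atf4, the effector of the PERK branch, had no overlap, at 28.6 to 40.2 and 41.8 to 52.7 CPM (0.38 ± 0.19, edgeR adjusted p = 0.493). It was 1 of 2 genes of this list that were higher without overlap, beside 4.14% of all genes tested. Mbtps2, the site-2 protease that frees ATF6, stood at 0.90 ± 0.66, and at 0.14 without library 35.

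None of 23 other folding factors passed in edgeR (1 in DESeq2, 0 in limma-voom), with a median of 0.13. In edgeR 4 had an unadjusted p under 0.05, beside 11.7% of all genes tested. Fkbp11, a peptidyl-prolyl isomerase of the ER, had 12.5, 6.52, 14.0 and 10.9 CPM in the DSS libraries and 45.5, 59.0, 44.95 and 10.9 CPM in the diet-alcohol libraries. As for Sdf2l1, library 71 alone stayed among the DSS values. The log2 fold change was 1.87 ± 0.45 (SE; edgeR adjusted p = 0.0806). Fkbp11 passed with DESeq2 (adjusted p = 0.00195) and without library 71 (edgeR adjusted p = 0.00572), and its adjusted p reached 0.277 in the other alternatives. Ero1lb, an oxidase that recharges disulfide isomerases, stood at -0.65, Txndc5 at -0.51 and Txndc11 at 0.60. Canx, which encodes calnexin, the membrane-bound partner of calreticulin, is named after its values were seen and stood at -0.60 ± 0.28 (SE; edgeR adjusted p = 0.434).

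In ER-associated degradation, which returns misfolded proteins to the cytosol for destruction, 0 of 22 genes passed in edgeR (1 in DESeq2, 0 in limma-voom). The median was -0.07, and 4 had an unadjusted p under 0.05 in edgeR, beside 11.7% of all genes tested. Derl3, a derlin of the retrotranslocation channel, had 0 to 15 counts in the DSS libraries and 19, 204, 48 and 12 counts in the diet-alcohol libraries. Its log2 fold change of 2.93 ± 0.98 (edgeR adjusted p = 0.225) had its highest counts in libraries 45 and 65 behind it, and DESeq2 called it (adjusted p = 0.0315). Derl2 had 9.29 to 13.1 and 13.5 to 20.0 CPM (0.60). Edem3, a mannosidase-like factor, had 5.75 to 8.70 and 2.58 to 5.08 CPM (-0.92), and Herpud1, an organizer of the degradation complex, stood at -0.79. The direction was thus mixed within the list.

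Of 18 genes of N-glycosylation and glycan trimming, Ganab fell, none rose and 17 did not pass (median 0.07). Ganab encodes the catalytic subunit of glucosidase II, which removes the glucoses that calnexin and calreticulin read. It had 68.7, 132, 111 and 111 CPM in the DSS libraries and 49.1, 49.1, 43.2 and 54.5 CPM in the diet-alcohol libraries. The diet-alcohol values lay close together and below all DSS values, as for 4.63% of all genes tested; 0.674% of them passed the test in this direction. The log2 fold change was -1.11 ± 0.23 (SE; edgeR adjusted p = 0.0398). Any 1 of 6 libraries (DSS 48, 49 and 50, diet-alcohol 45, 65 and 71) ended the call when left out, with edgeR adjusted p values of 0.0703 to 0.18. The mitochondrial covariate (0.176), limma-voom (adjusted p = 0.0588) and limma on log2(FPKM + 0.1) (0.0524) also ended it, and the value ran from -1.27 to -0.99 over all alternatives. Mogs, glucosidase I, stood at -0.69, Krtcap2, a subunit of the oligosaccharyltransferase, at 0.80 and Gfpt1, which feeds the hexosamine pathway, at 0.60.

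At the entry to the ER, 0 of 17 genes of translocation and signal peptide cleavage passed in edgeR, DESeq2 or limma-voom. Their median was 0.33, and 6 had an unadjusted p under 0.05 in edgeR, beside 11.7% of all genes tested. Ssr4, a subunit of the translocon-associated complex, had 32.0 to 40.8 CPM in the DSS libraries and 45.1 to 76.9 CPM in the diet-alcohol libraries (0.70). Sec61g, a subunit of the translocation channel, had 14.0 to 17.3 and 17.5 to 58.7 CPM (1.14) and passed without library 35 (edgeR adjusted p = 0.0231), while without library 45 it stood at 0.73 (0.459). The signal peptidase genes Sec11c and Spcs2 stood at 0.84 and 0.62. None of 16 genes of ER to Golgi transport passed in any of the 3 tools (median 0.17). In edgeR 1 had an unadjusted p under 0.05, again beside 11.7% of all genes tested. Surf4, a cargo receptor, stood at 0.58, Sec13, a coat subunit, at 0.59 (0.32 without library 35), Kdelr2, a receptor that returns chaperones to the ER, at 0.40 and Sar1b, the coat GTPase, at -0.39 (-0.17 without library 65).

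**Figure D4:**
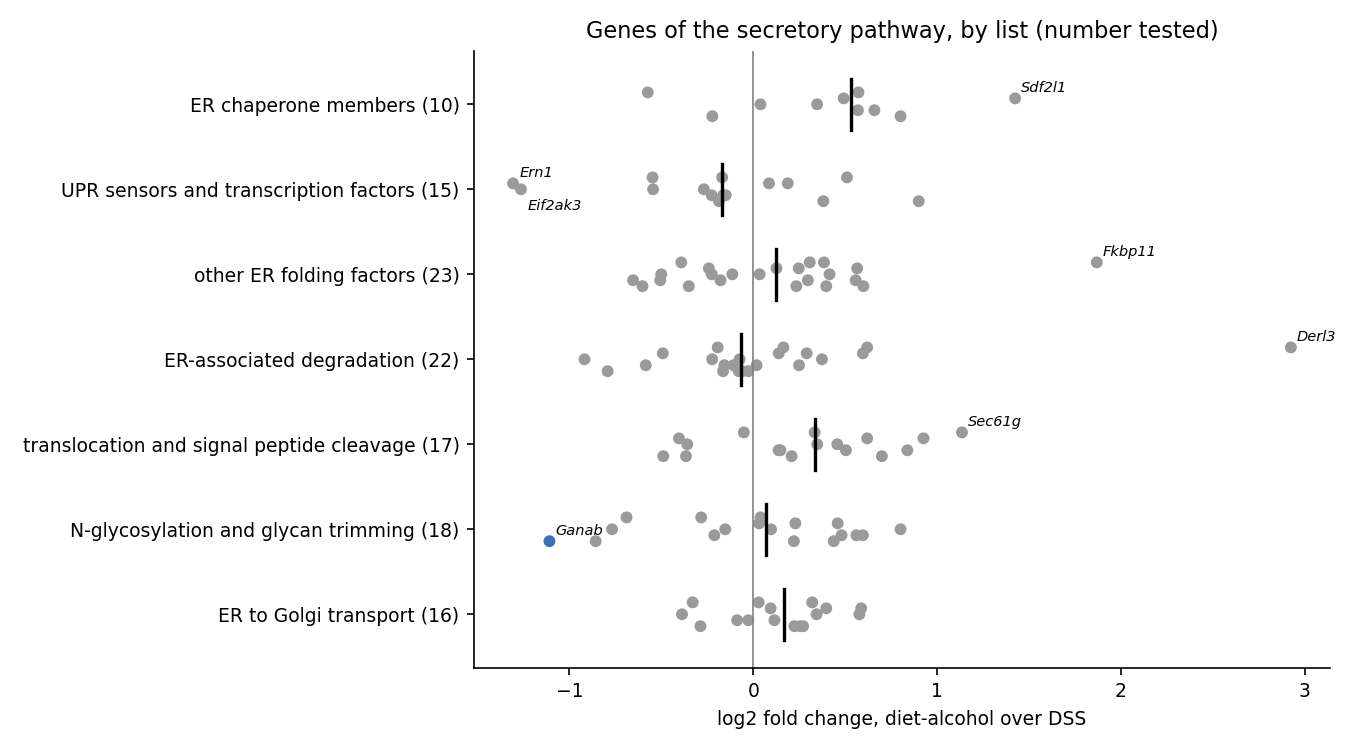
Log2 fold change (x axis, diet-alcohol over DSS) of every tested gene in the 7 lists, with the number tested in brackets, the list median as a black bar and names for genes beyond 1 in either direction. Ganab, in blue, is the gene past the test, and the median of the 10 genes followed here, 0.53, lies to the right of the others.

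Acute-phase proteins are plasma proteins that hepatocytes secrete through this pathway. Of 16 genes for acute-phase proteins 11 rose, 0 fell and 5 missed the threshold, beside 0.588% of all genes past it in this direction. Together they went from 18841 to 22771 CPM in the DSS libraries to 63877 to 103202 CPM in the diet-alcohol libraries. Orm2, Orm3, Apcs and Orm1 had the smallest p (log2 fold changes 5.81, 5.35, 3.93 and 3.43). The orosomucoid genes are near-identical and their reads could have been split between them. The acute-phase list was already known to have risen in these libraries, so it is no independent evidence.

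Markers of other secretory cells were examined beside these values. Of 10 plasma cell markers 4 were tested, and all 10 together were at 126 to 171 CPM in the DSS group and 31.0 to 89.2 CPM in the diet-alcohol group, mostly from Sdc1, which hepatocytes also express. Without Sdc1 the other 9 were at 10.2 to 19.7 CPM in the DSS group and 3.29 to 33.2 CPM in the diet-alcohol group. Library 65 was the highest and the other 3 diet-alcohol libraries lay below the DSS range. Library 35 was among those 3, with few genes at low counts and 0 counts for Igha and Ighm. All 4 tested plasma cell markers had a negative log2 fold change, and 0 passed the test. In library 65 the immunoglobulin genes Igkc and Igha had 16.3 and 8.84 CPM, against at most 9.68 and 5.51 in the DSS libraries. Ighm, also an immunoglobulin gene, had 3.31 CPM in library 65, below DSS 48 at 3.44. The same library had the highest Creld2, Sdf2l1 and Xbp1, and the part of plasma cells in those values was not tested. Tnfrsf17 had no count in any library. Of 10 pancreatic acinar markers 4 had no count in any library, 1 was tested, and all 10 together were at 3.28 to 7.67 and 4.86 to 10.2 CPM, mostly from Cela1. The 8 Kupffer cell markers together were at 203 to 323 CPM in the DSS group and 330.4 to 661 CPM in the diet-alcohol group. Marco made up 403 CPM of this in library 71, and without Marco the other 7 overlapped, at 196 to 313 and 234 to 519 CPM. Of the 8 markers, all were tested and 1, Marco, rose, beside 0.588% of all genes tested. The 9 neutrophil markers were at 4.19 to 14.9 and 29.6 to 61.3 CPM. Of these 9, 4 were tested and 3 rose, beside the same 0.588% of all genes tested. The part of Kupffer cells and neutrophils in the values of Sdf2l1, Calr, Xbp1 and Fkbp11 was not tested.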

How the data were processed

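Liver RNA of 8 libraries, 4 per group, was sequenced after library preparation with an mRNA kit, per the labels. The deposited table lists the authors' raw counts for 54532 genes. It also lists the authors' FPKM, their mean normalized signal per group, their log2 fold change and their p-value and adjusted p-value. Builds GRCm38 and mm10 are named in the submitters' processing notes; no aligner, counter or strand setting is named there, so each is not given in the sources used here. Genes overlapping Hsp90b1, Pdia4, Pdia6 and Dnajb9 in the table had at most 50 counts in a library.

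Low counts were removed by filterByExpr, TMM factors were applied, and all 8 libraries entered 1 robust quasi-likelihood fit in edgeR 4.0.16 (R 4.3.3), with Benjamini-Hochberg adjustment over 11729 genes and a threshold of 0.05. SE is the log2 fold change over the square root of F, and 95% intervals use the test's degrees of freedom. The log2 CPM values used a prior count of 2. In simulated data with 200 changed genes, 4 of 128 calls were false.

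The text names the 10 members, up to 4 genes per list with the smallest p, and 5 genes of at least 2 CPM with the most similar pattern. The members, lists and tests were chosen with earlier results of these data known. Alternatives were RLE normalization, DESeq2 1.42.0, limma-voom (limma 3.58.1), no filter, 1 CPM in 4 samples, mitochondrial genes left out, the mitochondrial share as a covariate, limma on log2(FPKM + 1) and log2(FPKM + 0.1), and leaving out each library. Precision was limited by the spread between libraries as well as by counting error.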

Additional observations from a re-analysis of the deposited data

How the results depend on the processing

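No paired analysis was possible because no number occurs in both groups. Of 170 alternative values for the 10 genes, 167 kept their direction and side of the threshold. Dnajb9 ran from -0.20 without library 35 (and -0.16 without DSS 15) to 0.19 without DSS 49 and 0.24 with the mitochondrial covariate, and Sdf2l1 passed without library 71, so 0 to 1 of the 10 genes passed when single libraries were left out and 0 in every other fit. The cause was not tested. Their median log2 fold change ran from 0.32 to 0.66. The count of all genes past the threshold, 148, was 431 with DESeq2, 249 with no filter, 55 with the mitochondrial covariate and 58 to 308 without single libraries: 58 without DSS 48, 74 without DSS 49, 77 without DSS 50, 83 without diet-alcohol 45 and 308 without 35. Over the 6 wider ER lists, 1 gene passed; 3 did with DESeq2 (1 folding factor, 1 degradation factor and 1 glycosylation gene), 0 with limma-voom, log2(FPKM + 0.1) or the mitochondrial covariate, and 0 to 2 without single libraries. In those fits the counts ran from 0 to 1 for folding factors, for translocation and for glycosylation, where Ganab lost its call. Mbtps2 turned to -0.14 with the mitochondrial covariate.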

Other observations

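Of 16 tested genes for cytosolic and mitochondrial chaperones, none passed in edgeR, DESeq2 or limma-voom. An unadjusted p under 0.05 in edgeR was found for 0, beside 11.7% of all genes tested. Their median log2 fold change was 0.02, and the range ran from -0.82 to 0.50. Hspb1, a small heat shock protein, stood at -0.82 (-0.44 without DSS 15), Trap1, the mitochondrial HSP90, at -0.37, Hspa8, the constitutive cytosolic HSP70, at 0.38 (0.04 without library 35) and Bag3, a co-chaperone of it, at -0.34 (-0.11 without DSS 15).

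The genes whose levels over the 8 libraries ranked most like the mean of the 10 ER genes were St6gal1 (Spearman's rho 0.98), Bet1 (0.98), Bhmt (0.95), Suclg2 (0.93) and Rab27a (0.93), out of 9576 candidates. They were picked as the highest of that many candidates with only 8 libraries to rank. Whether so high a rho exceeds what chance gives was not tested. None of the 5 passed the test between groups, with log2 fold changes from 0.12 for Suclg2 to 0.75 for Rab27a. The 8 points share library depth and composition, so these values describe the libraries only.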
